A study of Mus musculus with 6 samples.

Results

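The genes described are 52 members of the p53 pathway and the apoptosis machinery, of 34745 genes in the table. They fall into 2 sets, kept apart throughout. The p53 set holds 26 genes: Trp53, its regulators Mdm2 and Mdm4, and 23 target genes. The death set holds 26 genes of the BCL2 family, the caspases, the apoptosome, the inhibitors of apoptosis and the death receptor adaptors. Members were taken by gene name, and each name matched a row. RNA was sequenced in 6 libraries of P19, an embryonal carcinoma line of the mouse, here grown in serum-containing medium. Of these, 3 libraries came from cells treated with the peptide PDTLN1 and 3 from cells given no treatment. The labels give neither the dose nor the duration, and do not say whether libraries of a group came from separate cultures, so a p-value covers only library-to-library spread, possibly technical. The comparison asks which transcripts differ in abundance after the peptide.

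The transcription factor p53 is held at a low protein level by the ubiquitin ligase Mdm2 and kept inactive by its relative Mdm4, and is released from both after DNA damage and other stress. It then activates genes that arrest the cell cycle, repair DNA or promote death, and Mdm2 itself, which closes a feedback loop. Death through mitochondria is decided by the BCL2 family. Bax and Bak1 form the pore that lets cytochrome c out, Bcl2, Bcl2l1 and Mcl1 restrain them, and BH3-only proteins relieve that restraint. Cytochrome c then assembles Apaf1 and caspase-9 into the apoptosome, while Xiap and related proteins hold caspases back. Much of this control acts on proteins, which RNA abundance does not measure.

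Total gene counts were 10381307 to 11663081 in the PDTLN1 libraries and 10450134 to 11177756 in the control libraries. Pluripotent cell markers summed to 3212 to 3350 CPM (counts scaled by library size) in PDTLN1 libraries and 3354 to 3501 CPM in control libraries, with 8 of 10 tested. The extraction text names retinas, and of 11 retina markers 0 had enough counts to test: their sum was 1.26 to 2.00 CPM in PDTLN1 libraries and 1.52 to 1.78 CPM in control libraries, and the photoreceptor genes Crx and Arr3 stayed at 0 counts throughout. Of 9 blood and immune markers, 3 were tested, Cd3e had 0 counts, and the sums were 9.29 to 13.2 CPM in PDTLN1 libraries and 7.44 to 13.5 CPM in control libraries. Of 7 fibroblast markers, 6 were tested, with sums of 55.5 to 72.5 CPM in PDTLN1 libraries and 71.8 to 74.2 CPM in control libraries. In genes of the ATF4 stress response, PDTLN1 library 1 lay with control libraries 2 and 3, and control library 1 with PDTLN1 libraries 2 and 3. Whether the 2 libraries numbered 1 carry the right labels was not tested; the labels are used as given, and values without both libraries are given near the end. The p53 and death genes are not restricted to a cell type, and the part of other cells in their values was not tested.

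No member of either set passed the test between PDTLN1 and control. Enough counts for the test were present for 50 members, 24 of the p53 set and 26 of the death set. At an adjusted p under 0.05, edgeR's quasi-likelihood test called 0 of the 24 and 0 of the 26, against 3 of all 13836 genes tested (0.0217%). DESeq2 called 0 of each set as well, against 14 of the 12491 genes to which it gave an adjusted p (0.112%). It gave none to 1345 genes, among them Trp53, Tnfrsf10b and Bik, so its count covers 22 members of the p53 set and 25 of the death set. At an unadjusted p under 0.05 edgeR put 0 members of the p53 set higher and 3 lower after PDTLN1 (Pml, Phlda3 and Perp), and 1 member of the death set higher (Bcl2) and 0 lower. Over all genes 2.3% were higher and 1.69% lower at that level. DESeq2 had 1 member of the p53 set and 0 of the death set under it, against 367 of all 13836 genes. The median log2 fold change was -0.02 over the 24 genes, 0.00 over the 26, and -0.00087 over all genes tested.

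The precision of the comparison differed from member to member. The 95% interval of the fold change lay within a 2-fold change in either direction for 22 of 24 members of the p53 set and 26 of 26 of the death set, against 89% of all genes. It lay within 1.5-fold for 15 and 20 members, against 69.9% of all genes. The 2 members with wider intervals were Sesn2 and Aen, whose levels varied between libraries of the same group. In the death set log2 fold changes ran from -0.32 to 0.26, with 13 genes above 0 and 13 below. In the p53 set they ran from -0.47 to 0.12, with 9 genes above 0 and 15 below.

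**Figure D1:**
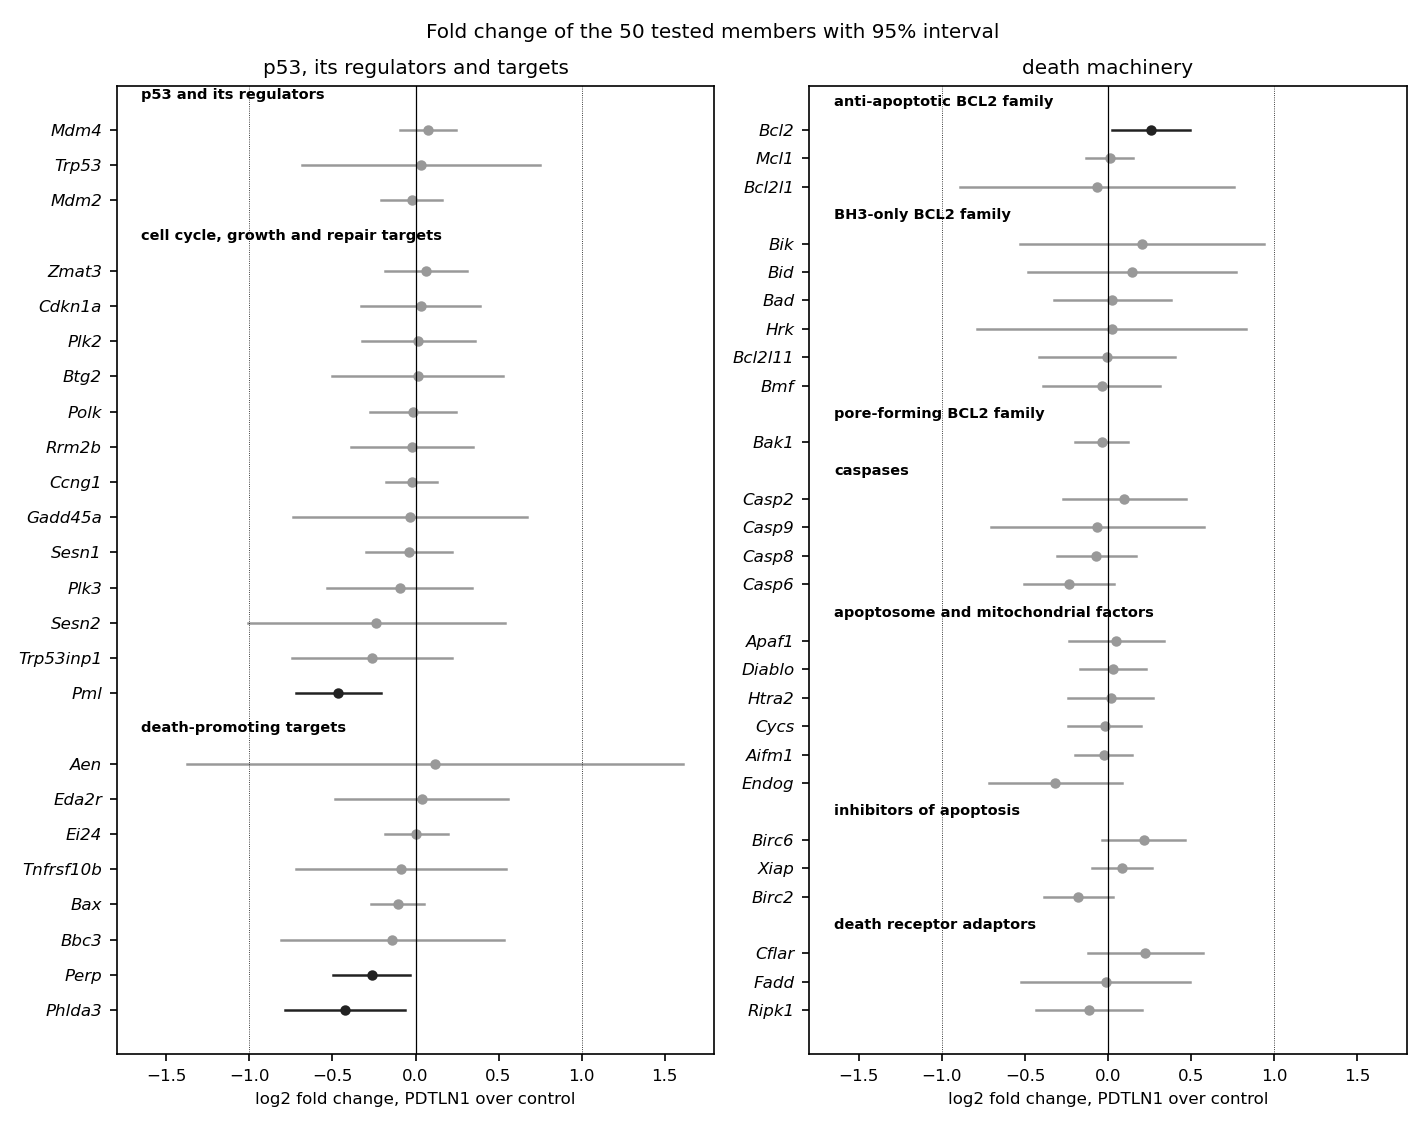
Fold change of each tested member on the log2 scale (horizontal axis, PDTLN1 over control), grouped by role, with points for the estimate and bars for the 95% interval. Black marks the 4 members at an unadjusted p under 0.05 (Pml, Phlda3, Perp and Bcl2), grey the others, and dotted lines a 2-fold change. Most points sit near 0, and the bar of Aen is the widest.

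To show the regulatory sequence behind the name of the p53 set, promoter windows from RefSeq (mouse build GRCm38.p6, 250 bases before to 50 bases after each start) were searched on both strands for the consensus p53 decamer, the 10-base unit that p53 binds in pairs. The decamer is its own reverse complement. Windows were present for 20 genes of the p53 set and 24 of the death set. The decamer stood in at least 1 window of 11 genes of the p53 set (55.0%), of 2 of the death set (8.33%, Bmf and Birc2), of 7 of 31 genes in a list of further p53 targets (22.6%) and of 2582 of all 27025 genes (9.55%). A pair of decamers with at most 13 bases between them stood in the window of Cdkn1a alone among the members, and of 20 genes in the table (0.074%). Well-known p53 elements of Mdm2 lie in an intron, outside such windows. A match here is a description of letters, and binding was not tested. In Cdkn1a the letters tgacatgttc, directly after the second decamer, depart from the consensus only in the first letter and are not in capitals. The pair and 4 single decamers are shown for the feedback regulator, for the targets with the highest level per length and for the member with the smallest p; capitals mark the decamer.
Cdkn1a, chr17:29090891-29090952, plus strand: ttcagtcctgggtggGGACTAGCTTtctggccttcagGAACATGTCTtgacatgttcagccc
Mdm2, chr10:117710920-117710959, minus strand: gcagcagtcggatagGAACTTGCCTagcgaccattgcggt
Ccng1, chr11:40755447-40755486, minus strand: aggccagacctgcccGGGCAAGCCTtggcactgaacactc
Bax, chr7:45467075-45467114, minus strand: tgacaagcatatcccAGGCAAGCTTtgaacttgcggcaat
Pml, chr9:58249906-58249945, minus strand: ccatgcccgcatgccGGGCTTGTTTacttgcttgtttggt
Of the 5 genes shown, Cdkn1a, Mdm2 and Ccng1 had log2 fold changes between -0.02 and 0.03, Bax had -0.11 and Pml had -0.47. None passed edgeR's test.

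Levels were compared between genes on the per-length scale, as FPKM (counts divided by the length of the gene and by the library size). The pore-forming gene Bax and the inhibitor Mcl1 stood at the top of the 52. Bax had 66.3, 63.4 and 64.5 FPKM in PDTLN1 libraries 1 to 3, against 69.6, 70.5 and 68.8 FPKM in control libraries 1 to 3. Mcl1 had 60.6, 69.7 and 64.4 FPKM in PDTLN1 libraries, against 63.3, 63.9 and 66.0 FPKM in control libraries. The ranges of these 2 genes overlapped, and on this scale both were above the next gene, Ccng1. That gene, a cyclin G that p53 induces, had 34.2 ± 1.66 FPKM (SD, n = 6). The lengths implied by counts and FPKM differed from the annotated exons. They were 869 bp against 1576 bp of exons for Bax, 4028 against 3418 bp for Mcl1 and 4316 against 3512 bp for Ccng1. With exon lengths Bax would be lower and the other genes named here higher, so the place of Bax depends on the length used. Among all tested genes Bax lay at percentile 95.7 and Mcl1 at percentile 95.4.

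Below these came Sesn2 (23.7 ± 6.94 FPKM), Bak1 (17.0 ± 0.530), Aifm1 (16.7 ± 0.878), Plk2 (13.05 ± 1.81), Perp (11.2 ± 1.19) and Cycs (10.4 ± 0.653), each as mean FPKM ± SD over 6 libraries. The members from place 10 (Xiap) to place 45 (Ripk1) lay between 9.16 and 1.69 FPKM. In the order by mean level, 45 of the 51 neighbouring pairs had overlapping ranges over the 6 libraries. Gaps between ranges followed Mcl1, Aifm1, Cycs, Ripk1, Bmf and Tnfrsf10b. The inhibitors Bcl2 (2.73 ± 0.317 FPKM) and Bcl2l1 (2.04 ± 0.677 FPKM) were far below Mcl1, which averaged 23.9 times the level of Bcl2.

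At the low end stood Trp53 itself, at 0.297 ± 0.0713 FPKM (SD, n = 6), percentile 4.47 of all tested genes. Its counts were 30, 24 and 17 in PDTLN1 libraries and 25, 23 and 19 in control libraries, or 2.90, 2.09 and 1.45 CPM against 2.40, 2.16 and 1.703 CPM. For Trp53, the log2 fold change of 0.03 had a 95% interval of -0.68 to 0.75, so a change of less than about that size in the p53 transcript was not detectable at this depth. Trp53 lies at chr11:69580359-69591873 (GRCm38, plus strand). The length implied by its counts and FPKM was 7108 bp, against 4045 bp of annotated exons, so its FPKM would be higher with the annotated length. Of 50-base windows of its exons 3.95% also occur in other genes, among them the pseudogene Trp53-ps, which was listed with 0 counts in each library.

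Below Trp53 were 2 death-promoting targets with too few counts to test. Fas, the death receptor of the FAS ligand, had 3, 6 and 6 counts in PDTLN1 libraries and 2, 2 and 4 in control libraries. Pmaip1, which encodes the BH3-only protein Noxa, had 2, 1 and 0 counts in PDTLN1 libraries and 0, 3 and 2 in control libraries. The counts of both genes overlapped between the groups. A count of 0 allows up to 3 counts, or 0.256 to 0.290 CPM by library, and this limit covers counting error only.

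**Figure D2:**
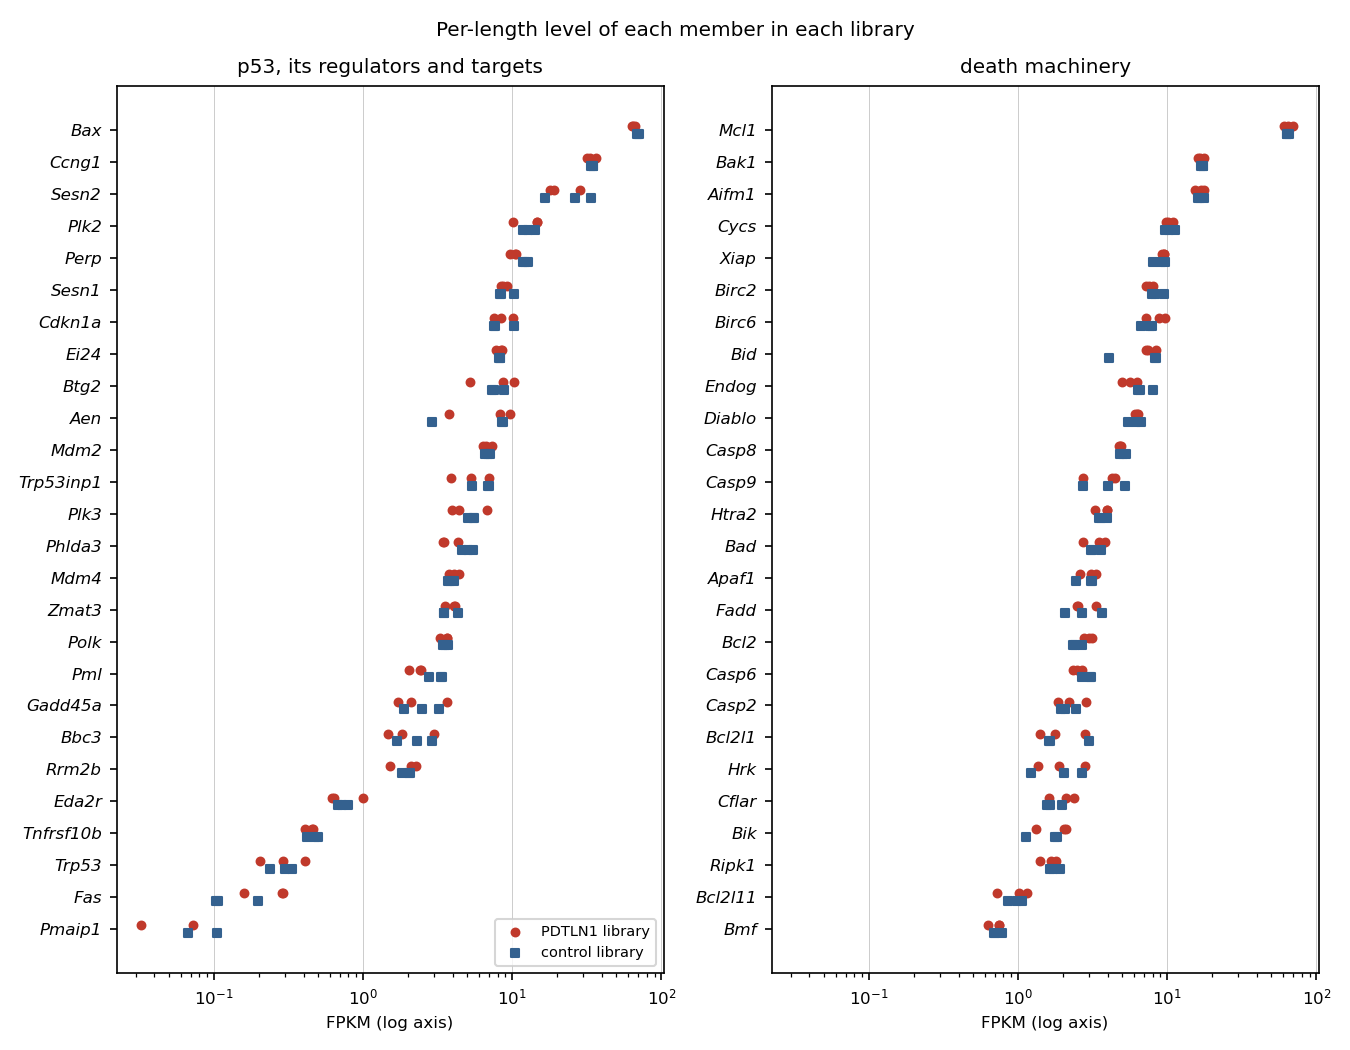
FPKM (log axis) of each of the 52 members in each library, ordered by mean level, with circles for PDTLN1 libraries and squares for control libraries. Bax and Mcl1 lead the 2 sets and Trp53, Fas and Pmaip1 stand at the low end; the 1 PDTLN1 library and the 1 control library in which Pmaip1 had 0 counts have no mark on the log axis.

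The regulators of p53 differed little between the groups. Mdm2, the ligase that is also a p53 target, had 71.8, 62.4 and 64.7 CPM in PDTLN1 libraries, against 69.5, 68.0 and 64.4 CPM in control libraries. Its log2 fold change was -0.02 (SE 0.08), with a 95% interval of -0.21 to 0.16, and the groups overlapped. Mdm4, which binds p53 and blocks its activity, had 100, 92.7 and 107 CPM in PDTLN1 libraries, against 91.2, 99.1 and 94.0 CPM in control libraries. The groups overlapped here too, with a log2 fold change of 0.07 and a 95% interval of -0.10 to 0.24.

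Of the 13 targets that act in the cell cycle, growth and repair, 1 (Pml) was under an unadjusted p of 0.05 and 0 passed the adjusted threshold. Cdkn1a, the cyclin-dependent kinase inhibitor p21 and the standard readout of p53 activity, had 31.3, 26.1 and 23.1 CPM in PDTLN1 libraries, against 23.3, 23.6 and 31.6 CPM in control libraries. Each group held 1 library near 31 and 2 lower ones, so the groups overlapped throughout. Its log2 fold change was 0.03 (SE 0.16), with a 95% interval of -0.33 to 0.39. Zmat3, an RNA-binding protein, had 78.3, 67.0 and 78.5 CPM in PDTLN1 libraries, against 82.1, 66.1 and 66.1 CPM in control libraries, a log2 fold change of 0.06. Ccng1 averaged 146 ± 10.53 CPM in PDTLN1 libraries and 149 ± 3.40 CPM in control libraries (SD, n = 3 each). Polk, a DNA polymerase that copies damaged templates, averaged 15.9 ± 0.876 CPM in PDTLN1 libraries and 16.1 ± 0.665 CPM in control libraries (SD, n = 3 each). For both, the difference was smaller than the spread within each group. Sesn1, a sestrin, Btg2, an antiproliferative factor, Plk2, a polo-like kinase, and Rrm2b, a ribonucleotide reductase subunit, had log2 fold changes of -0.04, 0.01, 0.02 and -0.02.

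Pml, which organises the nuclear bodies that bear its name, had the smallest p of the 50 members. It had 31.7, 38.0 and 38.0 CPM in PDTLN1 libraries, against 43.6, 53.1 and 52.3 CPM in control libraries. All 3 PDTLN1 libraries were below all 3 control libraries. The means were 35.9 ± 3.61 CPM after PDTLN1 and 49.6 ± 5.26 CPM in controls (SD, n = 3 each). The log2 fold change was -0.47 (SE 0.11), with a 95% interval of -0.72 to -0.21. In edgeR the unadjusted p was 0.00258 and the adjusted p was 0.989, and DESeq2's adjusted p was 0.270. Over the alternatives its log2 fold change stayed between -0.55 and -0.39 and its adjusted p ran from 0.0700 to 1.00. Pml lies at chr9:58218076-58249786 (GRCm38, minus strand), and 1.34% of the 50-base windows of its exons also occur in other genes.

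The death-promoting targets had 8 of 10 members tested, with 5 log2 fold changes below 0 and 3 above. Phlda3, an inhibitor of Akt signalling, had 7.06, 8.69 and 6.92 CPM in PDTLN1 libraries, against 9.31, 10.1 and 11.0 CPM in control libraries. Perp, a membrane protein of desmosomes that promotes apoptosis, had 20.3, 18.3 and 19.6 CPM in PDTLN1 libraries, against 24.3, 23.1 and 22.7 CPM in control libraries. Neither gene's groups overlapped, and in both the PDTLN1 libraries were the lower ones. Phlda3 had a log2 fold change of -0.43 (SE 0.16) and Perp of -0.26 (SE 0.10). In edgeR their unadjusted p-values were 0.0257 and 0.0293, and the adjusted p was 0.989 for each.

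Bax was the fourth member of the p53 set with no overlap between the groups, at 57.9, 55.1 and 55.9 CPM in PDTLN1 libraries, against 60.7, 61.4 and 59.9 CPM in control libraries. Its difference was small, with a log2 fold change of -0.11, a 95% interval of -0.27 to 0.05 and an edgeR adjusted p of 0.989. In the p53 set 4 of 24 members were thus lower in every PDTLN1 library than in any control library and 0 were higher, where 4.98% of all genes were lower and 4.81% higher. Of the exons of Bax 12.18% overlap the predicted gene Gm45808 on the same strand, so part of its count is uncertain. Ei24, a protein of the endoplasmic reticulum, averaged 39.1 ± 1.59 CPM in PDTLN1 libraries and 38.9 ± 0.339 CPM in control libraries (SD, n = 3 each). Eda2r and Tnfrsf10b, both receptors of the TNF receptor family, averaged 5.28 ± 1.54 and 1.40 ± 0.0856 CPM in PDTLN1 libraries, against 5.13 ± 0.412 and 1.49 ± 0.129 CPM in control libraries (SD, n = 3 each).

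In the death set the smallest p was that of Bcl2, which holds the pore-forming proteins in check. It had 28.1, 30.1 and 31.5 CPM in PDTLN1 libraries, against 24.3, 27.2 and 23.6 CPM in control libraries. All 3 PDTLN1 libraries were above all 3 control libraries. The means were 29.9 ± 1.73 CPM after PDTLN1 and 25.0 ± 1.92 CPM in controls (SD, n = 3 each), and the log2 fold change was 0.26 (SE 0.10), with a 95% interval of 0.02 to 0.49. In edgeR the unadjusted p was 0.0351 and the adjusted p was 0.989. Bcl2 lies at chr1:106538178-106714274 (GRCm38, minus strand), and an annotated antisense gene, D630008O14Rik, covers 6.09% of its exons. How strands were counted is not given in the sources used here, so reads of the 2 cannot be told apart there.

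The other inhibitors of the family were Mcl1 and Bcl2l1, and their difference from Bcl2 was not tested. Mcl1, which blocks Bak1 and Bax and turns over rapidly, had 245, 281 and 258 CPM in PDTLN1 libraries, against 256, 258 and 266 CPM in control libraries. The groups overlapped, and the log2 fold change of 0.01 had a 95% interval of -0.13 to 0.15. Bcl2l1, which encodes Bcl-xL and Bcl-xS, had 16.7, 33.4 and 20.9 CPM in PDTLN1 libraries, against 19.4, 35.6 and 19.5 CPM in control libraries. PDTLN1 library 2 and control library 2 were thus high and the other four lower, and the log2 fold change of -0.07 had a 95% interval of -0.89 to 0.76, which includes the value of Bcl2.

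The per-length ratio of Bax to Bcl2, often quoted for the balance of the family, was 23.8, 21.2 and 20.5 in PDTLN1 libraries, against 28.8, 26.1 and 29.3 in control libraries. Its mean was 21.8 ± 1.77 in PDTLN1 libraries, against 28.1 ± 1.75 in control libraries (SD, n = 3 each), with no overlap. The ratio was built from genes whose groups did not overlap in opposite directions and carries no test. With annotated exon lengths the ratios of Bax to Bcl2 and to Mcl1 would be lower in each library, in the same order of libraries. Bax over Mcl1 overlapped between the groups, at 1.09, 0.909 and 1.00 in PDTLN1 libraries and 1.10, 1.10 and 1.04 in control libraries.

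Bak1, the other pore-forming gene, averaged 73.9 ± 3.46 CPM in PDTLN1 libraries and 75.8 ± 1.12 CPM in control libraries (SD, n = 3 each), and the log2 fold change was -0.04. In FPKM its level was lower than that of Bax, which averaged 3.95 times Bak1 over the 6 libraries. The implied lengths were 869 bp for Bax and 4396 bp for Bak1, against 1576 and 2407 bp of annotated exons. With exon lengths this gap would be much smaller. The 6 BH3-only genes, whose proteins sense stress and engage the inhibitors, had log2 fold changes from -0.04 (Bmf) to 0.20 (Bik), and 0 were under an unadjusted p of 0.05. Bcl2l11, which encodes Bim, averaged 15.02 ± 3.37 CPM in PDTLN1 libraries and 15.1 ± 1.698 CPM in control libraries, and Bad, regulated by survival kinases, averaged 12.0 ± 1.92 CPM in PDTLN1 libraries and 11.8 ± 0.947 CPM in control libraries (SD, n = 3 each). These differences were smaller than the spread within the groups.

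Among the 4 caspases, Casp6, an executioner caspase that cleaves lamins, had 15.3, 14.3 and 16.3 CPM in PDTLN1 libraries, against 16.4, 18.7 and 18.8 CPM in control libraries. The groups did not overlap, though the highest PDTLN1 library and the lowest control library were close. The log2 fold change was -0.23 (SE 0.12), and edgeR's adjusted p was 0.989. Casp9, the initiator caspase of the apoptosome, had 34.2, 20.9 and 32.1 CPM in PDTLN1 libraries, against 20.7, 30.5 and 39.8 CPM in control libraries. PDTLN1 library 2 and control library 1 were the low ones, and the log2 fold change of -0.07 had a 95% interval of -0.71 to 0.58. Casp8, the initiator at death receptors, was even across libraries, at 17.9 ± 0.214 CPM after PDTLN1 and 18.8 ± 0.906 CPM in controls (SD, n = 3 each). Casp2, an initiator caspase activated on a platform that p53 target Pidd1 provides, averaged 23.7 ± 5.14 CPM in PDTLN1 libraries and 22.2 ± 2.65 CPM in control libraries (SD, n = 3 each).

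The apoptosome and mitochondrial factors were close to 0 on the log2 scale except Endog. Apaf1, the scaffold of the apoptosome, had 46.9, 50.9 and 39.6 CPM in PDTLN1 libraries, against 37.7, 47.9 and 47.2 CPM in control libraries. Cycs, cytochrome c, had 38.0, 40.8 and 36.6 CPM in PDTLN1 libraries, against 42.5, 38.3 and 36.2 CPM in control libraries. Both overlapped between the groups, with log2 fold changes of 0.05 (95% interval -0.24 to 0.33) and -0.02 (95% interval -0.24 to 0.20). Of the 50-base windows of Cycs exons 26.15% occur in other genes, mostly processed pseudogenes, so its counts depend on how reads with several matches were treated.

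Endog, a mitochondrial nuclease, had 6.68, 5.996 and 5.30 CPM in PDTLN1 libraries, against 7.01, 6.75 and 8.60 CPM in control libraries. Its groups did not overlap, with PDTLN1 the lower. Endog had a log2 fold change of -0.32 (SE 0.18) and an edgeR adjusted p of 0.989. Spout1, on the opposite strand, covers 35.65% of its exons, and its part in these counts was not tested. Aifm1, a mitochondrial flavoprotein that can move to the nucleus, Diablo, which displaces inhibitors from caspases, and Htra2, a mitochondrial protease, had log2 fold changes of -0.03, 0.03 and 0.02. Other genes overlap 43.72% of the exons of Htra2 on the opposite strand. For Diablo they overlap 19.35% on the same strand and 23.48% on the opposite strand. The part of these genes in the counts was not tested.

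The 3 inhibitors of apoptosis had log2 fold changes of both signs. Birc2, the ubiquitin ligase cIAP1, had 62.6, 59.0 and 65.5 CPM in PDTLN1 libraries, against 64.9, 68.5 and 78.5 CPM in control libraries, a log2 fold change of -0.18 (SE 0.09). Birc6, a very large ubiquitin-conjugating inhibitor, had 309, 411 and 374 CPM in PDTLN1 libraries, against 335, 325 and 284 CPM in control libraries, a log2 fold change of 0.21 (SE 0.11). Xiap, which binds and blocks caspases directly, had 112, 111 and 106 CPM in PDTLN1 libraries, against 105, 112 and 92.7 CPM in control libraries, a log2 fold change of 0.08 (SE 0.08). The groups overlapped for all 3, and edgeR's adjusted p was 0.989 for each.

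At the death receptor, Cflar, a caspase-8 relative that blocks its activation, had 29.0, 37.5 and 42.5 CPM in PDTLN1 libraries, against 35.6, 29.4 and 28.3 CPM in control libraries. Ripk1, a kinase that turns receptor signals to survival or death, had 13.7, 14.7 and 11.4 CPM in PDTLN1 libraries, against 15.6, 14.2 and 13.4 CPM in control libraries. Both overlapped between the groups, with log2 fold changes of 0.23 (95% interval -0.12 to 0.57) and -0.11 (95% interval -0.43 to 0.20). Fadd, the adaptor that recruits caspase-8, averaged 10.9 ± 1.94 CPM in PDTLN1 libraries and 11.0 ± 3.19 CPM in control libraries (SD, n = 3 each). In the death set 1 of 26 members was higher in every PDTLN1 library than in any control library (Bcl2) and 2 were lower (Casp6 and Endog), where 4.81% and 4.98% of all genes were.

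**Figure D3:**
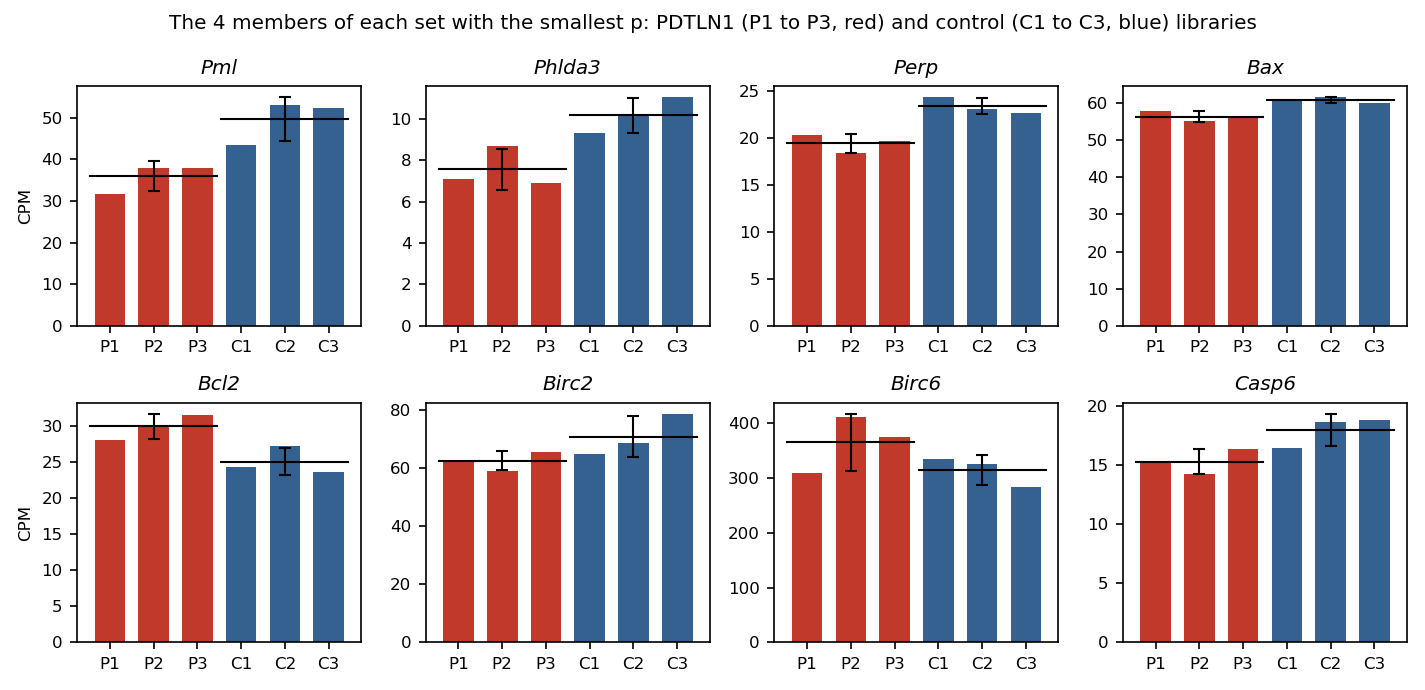
CPM in each library for the 4 members of each set with the smallest p, the p53 set above and the death set below, with bars for libraries, lines for group means and whiskers for ± 1 SD (n = 3). Bars of PDTLN1 libraries (P1 to P3) lie below those of control libraries (C1 to C3) for Pml, Phlda3, Perp, Bax and Casp6 and above them for Bcl2, and they overlap for Birc2 and Birc6.

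Some members differed more between libraries of 1 group than between the groups. By a rule for genes at 2 levels (mean of at least 10 CPM and a widest gap between sorted log2 values of over 0.6 that also exceeds 4 SD of the values inside the levels), 3 of the 42 members at that level qualified, against 159 of 9929 genes (1.6%). Aen, a nuclease that p53 induces, had 40.5, 103 and 87.9 CPM in PDTLN1 libraries, against 91.3, 92.3 and 31.0 CPM in control libraries. PDTLN1 library 1 and control library 3 were the low ones, and the other four were at least 87.9 CPM. The log2 fold change of 0.12 had an SE of 0.57 and a 95% interval of -1.38 to 1.61.

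The other two members at 2 levels were Bcl2l1, high in PDTLN1 library 2 and control library 2 as given above, and Bid. Bid, the BH3-only protein that caspase-8 cleaves, had 40.8, 39.7 and 45.6 CPM in PDTLN1 libraries, against 22.4, 45.5 and 46.3 CPM in control libraries. Control library 1 alone was low. Bcl2l13 lies antisense to 17.69% of Bid's exons. Over the whole gene, Bcl2l13 had 196, 188 and 189 CPM in PDTLN1 libraries, against 180, 179 and 184 CPM in control libraries. Its part in the counts of Bid was not tested. The libraries that stood out differed among the 3 genes, and the sign of each log2 fold change hung on single libraries. For Bid it was 0.14 with all libraries and -0.13 without control library 1. For Aen it was 0.12 with all libraries, -0.25 without control library 3, -0.15 without PDTLN1 library 2 and 0.42 without PDTLN1 library 1. For Bcl2l1 it was -0.07 with all libraries, 0.29 without control library 2, 0.13 without PDTLN1 library 1, 0.02 without PDTLN1 library 3 and -0.40 without PDTLN1 library 2.

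The libraries also differed in the stress genes driven by ATF4, the transcription factor of amino acid shortage and endoplasmic reticulum stress. Over 19 such genes that are no members, the mean deviation from each gene's own mean was 0.49, -0.56 and -0.25 log2 units in PDTLN1 libraries 1 to 3, against -0.38, 0.22 and 0.47 in control libraries 1 to 3. PDTLN1 library 1 and control libraries 2 and 3 were thus the high ones. The 3 highest libraries were these same 3 for 5 of 24 members of the p53 set (Trp53inp1, Sesn2, Plk3, Bbc3 and Gadd45a) and 1 of 26 of the death set (Hrk), against 14.4% of all genes. The reverse order, these 3 lowest, held for 1 member of the p53 set (Polk) and 6 of the death set (Birc6, Cflar, Bik, Casp2, Aifm1 and Bad), against 14% of all genes. Over the 50 members, 6 had the first order and 7 the reverse, shares near those of all genes. The 2 sets leaned opposite ways. For the p53 set the mean deviation was 0.074, -0.085 and -0.109 log2 units in PDTLN1 libraries, against -0.0042, 0.063 and 0.062 in control libraries. Its 3 highest libraries were those of the ATF4 genes. For the death set it was -0.037, 0.050 and -0.00057 in PDTLN1 libraries, against -0.042, 0.023 and 0.0064 in control libraries. Whether either set followed the ATF4 genes more than other genes do was not tested.

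Sesn2, a sestrin induced by both p53 and ATF4 that restrains mTORC1, had 99.1, 62.4 and 66.3 CPM in PDTLN1 libraries, against 57.6, 91.8 and 118 CPM in control libraries. Trp53inp1, a stress protein that promotes autophagy, had 50.3, 28.1 and 38.2 CPM in PDTLN1 libraries, against 39.1, 49.98 and 50.6 CPM in control libraries. In both, PDTLN1 library 1 was above the other two PDTLN1 libraries and control library 1 below the other two controls. The log2 fold change was -0.24 with a 95% interval of -1.01 to 0.54 for Sesn2 and -0.26 with a 95% interval of -0.75 to 0.22 for Trp53inp1.

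Bbc3, which encodes the BH3-only protein Puma, had 8.71, 5.30 and 4.27 CPM in PDTLN1 libraries, against 4.90, 6.66 and 8.42 CPM in control libraries. Gadd45a, a growth arrest and DNA damage gene, had 15.2, 8.78 and 7.09 CPM in PDTLN1 libraries, against 7.87, 10.3 and 13.4 CPM in control libraries. Hrk, a BH3-only gene best known in neurons, had 17.1, 8.17 and 11.3 CPM in PDTLN1 libraries, against 7.39, 12.3 and 16.1 CPM in control libraries. All 3 had log2 fold changes between -0.14 and 0.02 and had the same 3 highest libraries as the ATF4 genes. Plk3, a stress-responsive kinase, did so with less contrast, at 25.9, 16.9 and 15.1 CPM in PDTLN1 libraries, against 19.5, 21.004 and 21.2 CPM in control libraries. The letters TGATGNAA, an element of ATF4 with C/EBP partners, were searched on both strands of the same promoter windows and stood in those of Polk and Hrk among the members, and in 4.51% of all genes.

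**Figure D4:**
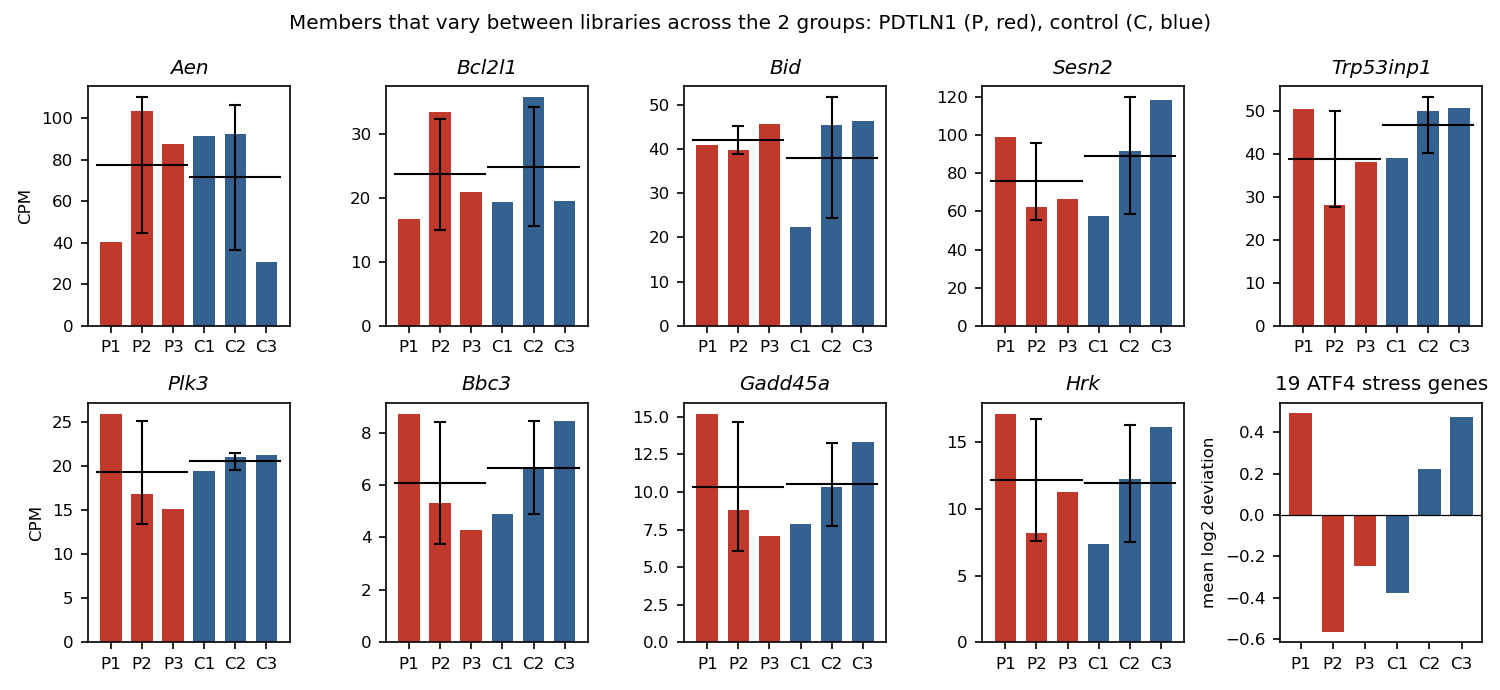
CPM in each library for the 3 members at 2 levels (Aen, Bcl2l1 and Bid) and the 6 whose 3 highest libraries were those of the ATF4 genes, with bars for libraries, lines for group means and whiskers for ± 1 SD (n = 3). The last panel gives the mean log2 deviation of 19 ATF4 stress genes, high in P1, C2 and C3; PDTLN1 libraries are P1 to P3 and control libraries C1 to C3.

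Without PDTLN1 library 1 and control library 1, edgeR called 91 of 13949 genes (0.652%) and 0 members of either set. The median log2 fold change of the p53 set was then -0.15, and it was -0.12 without PDTLN1 library 1 alone. The members nearest to the threshold were Sesn2, with a log2 fold change of -0.71 and an edgeR adjusted p of 0.0558, and Pml, with -0.47 and an edgeR adjusted p of 0.0700. Trp53inp1 (-0.60), Birc6 (0.37) and Cflar (0.47) had edgeR adjusted p-values of 0.110, 0.0995 and 0.109. Among the 4 libraries left, the PDTLN1 ones are those with low ATF4 means and the control ones those with high means, so the treatment and that stress pattern cannot be told apart there. Pml kept a log2 fold change of -0.47 with and without these libraries.

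Other genes of the pathway came from lists of further p53 targets, upstream regulators and death genes. Of 30 further p53 targets tested, 0 were called and 0 were under an unadjusted p of 0.05 in edgeR, with a median log2 fold change of -0.04. The 3 with the smallest p were Fdxr, a mitochondrial reductase, at -0.23, Rprm, a G2 arrest gene, at 0.39, and Xpc, a DNA damage sensor, at -0.16 on the log2 scale. Of 18 upstream regulators 0 were called and 0 were under that p, with a median of 0.02. Its 3 smallest p-values belonged to the acetyltransferase Ep300 (log2 fold change 0.19), the kinase Atm (0.12) and the kinase Chek2 (-0.20). Atm had 142, 140 and 149 CPM in PDTLN1 libraries, against 133, 134 and 130 CPM in control libraries, without overlap.

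Of 20 further death genes tested, 0 were called and 0 were under an unadjusted p of 0.05, with a median log2 fold change of -0.03. The smallest p-values were those of Bcl2l13, a mitochondrial relative of Bcl2 (log2 fold change 0.08), Parp1, a caspase substrate (-0.07), and Tnfrsf1a, the TNF receptor (0.13). Of 20 ATF4 stress genes 1 was under an unadjusted p of 0.05 in edgeR, the cystine transporter Slc7a11 (log2 fold change 0.33, SE 0.13). Slc7a11 had 15.7, 14.7 and 16.2 CPM in PDTLN1 libraries, against 12.8, 13.1 and 11.2 CPM in control libraries. Shmt2 (-0.14) and Phgdh (-0.11), both of serine metabolism, came next. Of the 20 genes, 17 were highest in PDTLN1 library 1 and control libraries 2 and 3, and Slc7a11, Psat1 and Vldlr were not. Of 8 tested pluripotency markers, Utf1 (-0.38) was under that p, and Dnmt3b (-0.15) and Pou5f1 (-0.11) came next. The tested blood markers were Hba-a1 (0.42), Hbb-bs (-0.12) and Lyz2 (0.24), and the fibroblast markers with the smallest p were Col1a1 (-0.19), Col1a2 (-0.31) and Postn (0.10), on the same log2 scale, with 0 under an unadjusted p of 0.05.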

How the data were processed

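Gene expression was measured by RNA sequencing in 3 PDTLN1 and 3 control libraries of P19 cells, prepared with an Illumina TruSeq kit per the labels' protocols. The authors deposited whole-number read counts per gene, not normalized, with FPKM values beside them. The deposited FPKM follow the counts: for 15678 of 15678 genes with counts in each library, both imply 1 gene length within 0.1%, so only counts were tested. Bowtie 0.12.2 and the builds mm8 and mm9 are named in the submitters' processing notes without a role. Counter, annotation and the handling of strand and multiple matches: not given in the sources used here. Loci of 27686 of 34267 identifiers (80.79%) equal those of GENCODE release 21, so coordinates are given in GRCm38.

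Groups follow the treatment label. The titles of treated libraries carry an unexplained code. Counts were fitted with edgeR 4.0.16 in R 4.3.3: filterByExpr, TMM scaling, robust glmQLFit and glmQLFTest, two-sided, with Benjamini-Hochberg adjustment over 13836 genes. The SE of a log2 fold change is its size over the root of F. CPM use the scaled totals. Alternatives were DESeq2 1.42.0, other scalings, filters (stricter: 1 CPM in 3 libraries and 10 counts), thresholds of 0.01 and 0.1, a replicate block and left-out libraries. The steps were tested on simulated counts with 50 genes changed at each size. The edgeR test called 38% of 1.5-fold, 76% of 2-fold, 90% of 3-fold and 88% of 4-fold changes in the right direction. Of its 155 calls 9 were false. Changes of 1.5-fold or less can thus be missed. Depth was about even, and values rest on counting error plus the spread of 3 libraries a group.

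Members and lists were chosen with earlier results of these data known. Values per library are given for 11 central genes, the 8 members of each set with the smallest p, and members of library patterns, chosen after their values were seen; of each other list the 3 tested genes with the smallest p are named. Same-numbered libraries deviated with correlations of -0.38, -0.15 and -0.12 across genes. Pairs with unlike numbers had correlations from -0.20 to 0.30. The numbers thus showed no closer likeness within a pair, and whether same-numbered libraries shared a batch was not tested. Sequences are RefSeq's (GRCm38.p6); 44 of 52 members matched, and 41 of their 61 windows end in bases that begin an annotated transcript. A few genes of the naming rule are not reported here.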

Additional observations from a re-analysis of the deposited data

How the results depend on the processing

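No member of either set was called at an adjusted p under 0.05 in the 13 refits. The thresholds of 0.01 and 0.1 were applied to the main fit alone, and no member was called there either. Without both libraries numbered 1, the edgeR adjusted p-values of Sesn2 (0.0558), Pml (0.0700) and Birc6 (0.0995) were under 0.1. The number of genes called overall was 3 in the main comparison, 14 with DESeq2, 8 without a filter beyond a count in 1 library, 1 with the replicate block, 91 with both libraries numbered 1 left out, and 2 to 13 when each library was left out in turn (13 without control 1, 8 without PDTLN1 1, 6 without PDTLN1 2, 5 without control 3, and 2 without PDTLN1 3 or control 2). The replicate block gave a median log2 fold change of -0.03 for the p53 set and 0.01 for the death set. With each library left out the median ran from -0.12 (without PDTLN1 1) to -0.0086 for the p53 set and from -0.040 (without PDTLN1 2) to 0.030 for the death set; without both libraries numbered 1 the p53 median was -0.15. The cause of these shifts was not tested. Of 650 member values under 13 refits, 87 had the other sign than in the main comparison, in 31 members. Another 19 members kept their sign in all refits, Pml, Bcl2 and Bax included. The groups of Pml, Bcl2 and Bax did not overlap, so leaving out libraries could hardly change their sign, and the other refits used the same counts. Their kept sign is therefore no further evidence. Shares over all genes were not counted. Depth limits Trp53, Bik, Tnfrsf10b, Fas and Pmaip1, the 5 members with the fewest counts.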
